A study of Mus musculus with 2 samples.

Results

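Platelet-carrying monocytes were blood monocytes whose libraries also held transcripts of platelets. They were chosen by their own UMI counts. A cell belonged to them where it had at least 1000 unique molecular identifiers (UMIs), at most 10% mitochondrial UMIs, S100a8+S100a9 under 4% of its UMIs, at least 1 UMI of Csf1r, the receptor that monocytes need for survival, no UMI of the B cell gene Cd79a, under 10 UMIs of the MHC class II genes H2-Aa, H2-Ab1 and H2-Eb1, at least 5 UMIs over 8 classical and nonclassical monocyte genes, and at least 4 UMIs of Ppbp and Pf4 together. This gave 1499 of 34768 cells, 841 of 17123 in the WT library and 658 of 17645 in the APP/PS1 library. In all 7534 cells met the limits before the last and are called gated monocytes. Of these, 3381 had no UMI of Ppbp or Pf4 and are called platelet-free, and 2654 had 1 to 3 and are called intermediate.

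The cells came from 10x Genomics 3′ single-cell libraries (v3 chemistry) of peripheral blood taken by cardiac puncture into EDTA, lysed with ammonium chloride and enriched for neutrophils by negative selection, so these monocytes were those left after the enrichment. One library was made from wild-type C57BL/6J mice (WT) and the other from APP/PS1 transgenic mice, a model of amyloid deposition, all female, 7 months old and untreated, with cells of 3 mice pooled in each. The promoter of the transgenes is not given in the sources used here. The WT library held 92458623 UMIs, a median of 3345 per cell, and the APP/PS1 library 84870864 UMIs, a median of 3115. With 1 library per genotype no test was made. The 95% intervals below cover counting error only, so a difference between the libraries may be that of 2 pools of mice or of 2 preparations. The libraries shared 83 cell barcodes, 10 of them among the WT and 1 among the APP/PS1 platelet-carrying cells, and 0 barcodes were platelet-carrying in both.

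Platelets are fragments of megakaryocytes. They have no nucleus but carry messenger RNA made in the megakaryocyte, including the α-granule chemokines Ppbp (Cxcl7) and Pf4 (Cxcl4), the glycoprotein receptors for von Willebrand factor and fibrinogen, and proteins of their contractile cytoskeleton. Activated platelets bind leukocytes through P-selectin and its ligand Selplg, and platelet-monocyte aggregates are a known feature of blood. Mouse monocytes fall into a classical, Ly6C-high type that expresses Ccr2 and a nonclassical, patrolling type that expresses Ace and Adgre4.

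The 2 genes that chose the cells lie side by side on chromosome 5 of mm10 (GENCODE M21), Ppbp at 90768518 to 90770063 and Pf4 at 90772435 to 90773383, both on the plus strand. The 250 bases before their start sites (RefSeq, GRCm38.p6), and those of Gp9, a platelet receptor gene on chromosome 6 that the rule did not use and that was higher in the same cells, are shown 5′ to 3′ because platelet genes were higher together in these cells. Capitals mark GATAA and GGAAG on either strand, the core letters bound by GATA and ETS factors of megakaryocytes.

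Ppbp chr5:90768268-90768517 (plus strand): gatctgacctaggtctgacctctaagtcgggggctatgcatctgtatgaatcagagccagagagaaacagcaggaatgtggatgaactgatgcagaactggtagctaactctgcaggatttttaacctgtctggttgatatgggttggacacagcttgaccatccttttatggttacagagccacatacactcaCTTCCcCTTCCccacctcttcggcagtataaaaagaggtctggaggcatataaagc
Pf4 chr5:90772185-90772434 (plus strand): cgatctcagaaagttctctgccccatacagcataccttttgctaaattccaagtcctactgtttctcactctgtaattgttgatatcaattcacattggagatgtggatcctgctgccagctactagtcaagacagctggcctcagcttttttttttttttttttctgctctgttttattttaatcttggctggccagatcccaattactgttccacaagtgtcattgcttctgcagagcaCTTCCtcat
Gp9 chr6:87777820-87778069 (plus strand): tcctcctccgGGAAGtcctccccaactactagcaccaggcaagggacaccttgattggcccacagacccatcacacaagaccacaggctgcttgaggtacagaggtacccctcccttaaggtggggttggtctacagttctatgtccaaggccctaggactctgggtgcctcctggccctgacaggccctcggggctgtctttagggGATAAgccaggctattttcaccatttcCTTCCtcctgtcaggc

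GGAAG occurred 2 times before Ppbp, 1 time before Pf4 and 2 times before Gp9, and 64.1% of the 32851 promoters in the table hold it. GATAA occurred 1 time before Gp9 and is held by 22.6% of all promoters. Among the 48 promoters of the platelet and megakaryocyte lists the shares were 70.8% and 22.9%. These matches describe the letters in the window only.

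Among all gated monocytes, 19.3% (95% interval 18.1 to 20.5, 841 of 4362) carried at least 4 UMIs of Ppbp and Pf4 in the WT library and 20.7% (19.3 to 22.2, 658 of 3172) in the APP/PS1 library. The difference of 1.46 percentage points had an interval of -0.36 to 3.31, which includes 0. With a limit of 10 UMIs the difference was 1.53 points (0.44 to 2.66), an interval clear of 0. The load per carrying cell had a median of 7 UMIs in both libraries and a quartile range of 5 to 10 in WT and 5 to 12 in APP/PS1. The means were 9.04 and 11.2 UMIs. The APP/PS1 mean was raised by 3 cells over 100 UMIs, the highest with 326, and was 10.2 without them, whereas no WT cell held more than 76. Ppbp was at 0 UMIs in 145 WT and 79 APP/PS1 members, and Pf4 in 3 members of each library.

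**Figure D1:**
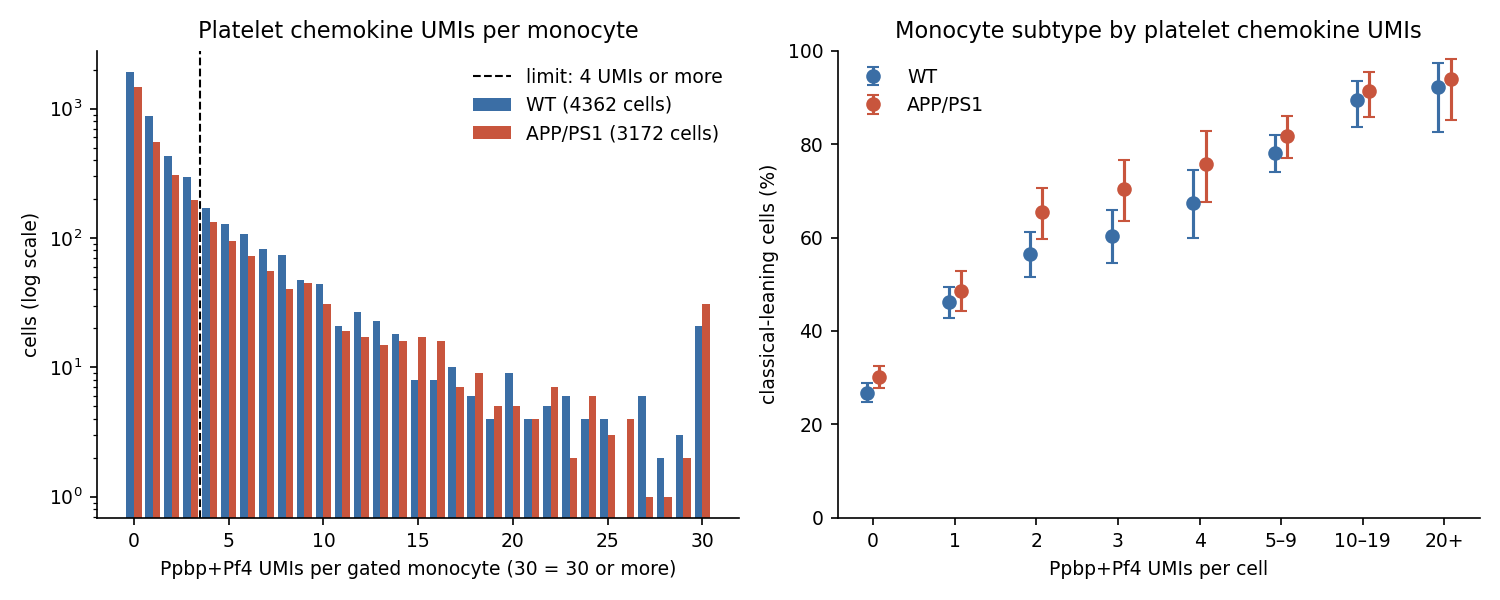
Left, number of gated monocytes (log scale) by their Ppbp+Pf4 UMIs in the WT (blue) and APP/PS1 (red) libraries, with the limit of 4 UMIs dashed and cells of 30 or more collected in the last bar. Right, percent of classical-leaning cells by Ppbp+Pf4 UMIs with exact 95% intervals of counting error. The counts decline with no gap at the limit, and the classical-leaning share goes from 26.8% and 30.1% at 0 UMIs to 92.2% and 93.9% at 20 UMIs or more.

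The limit cut a continuous distribution. Just outside it, 297 WT and 196 APP/PS1 monocytes had 3 UMIs, and just inside it 169 and 132 had 4. Cells on either side of the limit differed to varying degrees in other platelet genes. Nrgn, the neurogranin gene, which platelets also express, was at 237 CPM (UMIs of the gene per 1000000 UMIs of the class) in the WT cells with 3 UMIs and at 280 CPM in those with 4, against 60.9 CPM in platelet-free and 983 CPM in cells with 20 or more. The APP/PS1 levels in the same order were 328, 395, 66.1 and 1930 CPM. Itga2b, the αIIb integrin gene, was at 40.5 and 63.8 CPM in WT cells with 3 and 4 UMIs, and at 50.55 and 56.5 CPM in APP/PS1. The summed UMIs of all platelet-list genes other than Ppbp and Pf4 averaged 60.7 per WT carrying cell and 16.8 per platelet-free cell, and 74.1 and 16.0 in APP/PS1. These means are not scaled to depth, and carrying cells were deeper. Scaled to depth, listed receptors summed to 1166 against 460 CPM in WT and 1737 against 416 CPM in APP/PS1. Cytoskeleton and signalling genes summed to 2608 against 1229 CPM and 3588 against 1246 CPM. Megakaryocyte factors summed to 481 against 477 CPM and 456 against 406 CPM. Within carrying cells the log2 UMIs of Ppbp+Pf4 and of the other list genes had a Pearson correlation across cells of 0.69 in WT (n = 841) and 0.76 in APP/PS1 (n = 658), as a description of cells that share a library and differ in depth.

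The cells expressed genes of monocytes, at levels that differed from those of platelet-free cells to varying degrees. Csf1r, part of the rule, stood at 573 (WT) and 524 (APP/PS1) CPM in carrying cells, below the 883 and 873 CPM of platelet-free cells. Cd68, a macrophage and monocyte endosomal glycoprotein that the rule did not use, had a UMI in 81.2% and 80.7% of carrying and in 68.5% and 70.7% of the shallower free cells. Its level was lower in carrying cells, at 209 against 242 CPM in WT and at 199 against 251 CPM in APP/PS1. All 15 monocyte genes outside the rule passed the filter described below, and 0 of them differed by over 1 log2 unit in both libraries. Over all 6569 genes past that filter, 1.78% were higher and 1.55% lower by this fold, so a count of 0 is near the overall share. Their median log2 ratio of carrying over free was -0.16 in WT and -0.15 in APP/PS1. Lyz2, the gene of lysozyme and the most abundant of them, stood at 16039 against 11039 CPM in WT and at 17546 against 12532 CPM in APP/PS1. Fcer1g, an immunoreceptor adaptor, stood at 2459 against 2853 CPM and at 2456 against 2897 CPM.

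Most platelet-carrying monocytes were of the classical kind. A cell was called classical-leaning where the UMIs of Ccr2, F13a1, Fn1 and Ly6c2 exceeded those of Ace, Adgre4, Ear2 and Eno3, and nonclassical-leaning in the opposite case. In WT, 79.3% (76.4 to 82.0) of carrying and 26.8% (24.8 to 28.8) of platelet-free cells were classical-leaning, a difference of 52.6 percentage points (49.0 to 55.8). The APP/PS1 shares were 84.0% (81.0 to 86.8) and 30.1% (27.7 to 32.5), a difference of 54.0 points (50.1 to 57.4). Read the other way, 33.3% of WT and 34.6% of APP/PS1 classical-leaning monocytes carried platelet transcripts, and 7.17% and 6.60% of nonclassical-leaning ones. F13a1, the gene of coagulation factor XIII A, is expressed by platelets as well as monocytes and is part of this score. In platelet-carrying neutrophils it was at 34.6 and 33.1 CPM, against 798 and 717 CPM in the carrying monocytes. Of the 4 classical genes of the score, 1 was over 1 log2 unit higher in carrying than in free neutrophils, as were 2.19% of all genes compared. The part of platelet RNA in the score was not tested.

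Depth moved with both calls. Carrying cells had a median of 9174 UMIs in WT and 8877 in APP/PS1, and platelet-free cells 4890 and 5183. Classical-leaning cells were the deeper kind, with medians of 8618 and 8169 UMIs against 4402 and 4723. Within each band of depth from 4000 UMIs up the classical-leaning cells held the larger share. Between 6000 and 8000 UMIs, 22.1% (18.8 to 25.6) of 598 classical-leaning and 12.03% (8.52 to 16.3) of 291 nonclassical-leaning WT cells carried platelet transcripts, and 24.4% (20.8 to 28.2) of 546 and 10.4% (6.91 to 14.9) of 250 APP/PS1 cells. Between 10000 and 15000 UMIs the shares were 41.6% and 14.4% in WT and 55.1% and 16.4% in APP/PS1. Each cell was also thinned to 1000 UMIs. Then 27.0% (25.1 to 29.0) of classical-leaning and 16.0% (14.6 to 17.6) of nonclassical-leaning WT monocytes kept a UMI of Ppbp or Pf4, and 29.96% (27.7 to 32.3) and 13.1% (11.5 to 14.9) in APP/PS1. Before thinning, the shares with at least 1 UMI were 74.4% and 40.1% in WT and 72.5% and 34.9% in APP/PS1. Carrying and free cells had medians of 2824 and 1934 genes per cell in WT before thinning and of 633 and 633 after it. In APP/PS1 the medians were 2712.5 and 1975.5 before and 621 and 624 after.

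**Figure D2:**
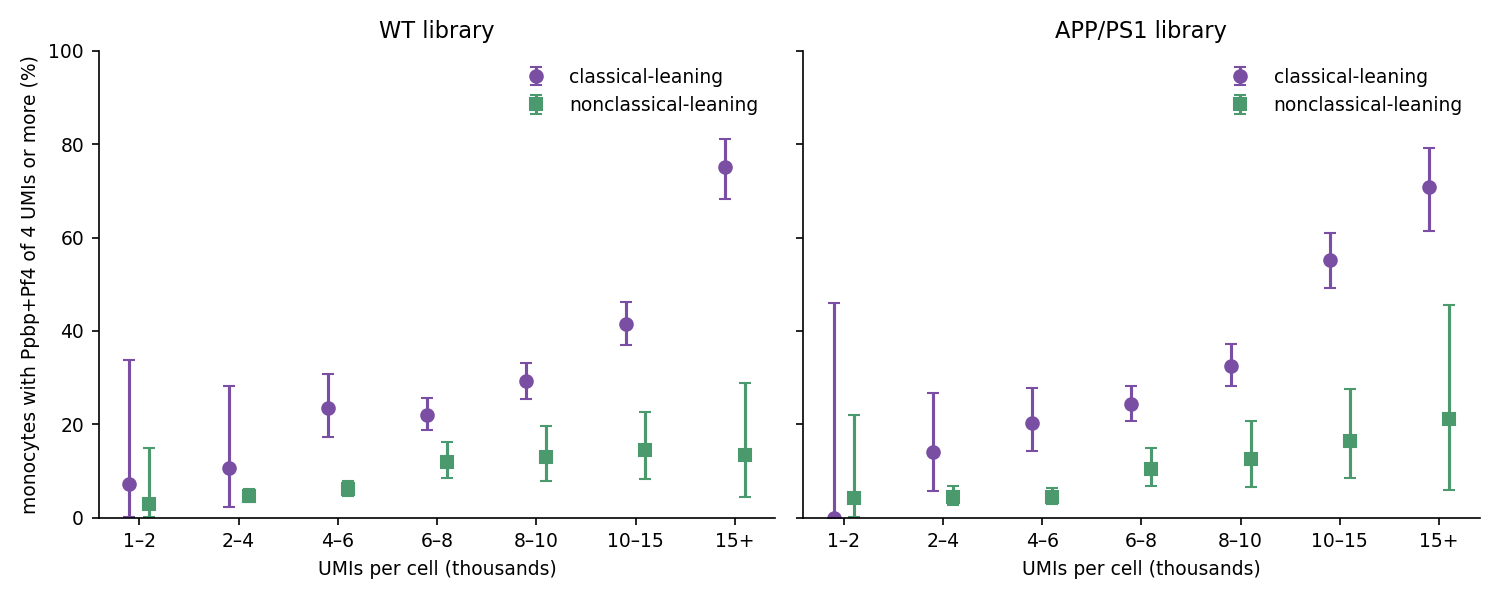
Percent of gated monocytes with Ppbp+Pf4 of 4 UMIs or more (y axis, exact 95% intervals of counting error) by bands of UMIs per cell (x axis, in units of 1000), for classical-leaning (purple circles) and nonclassical-leaning (green squares) cells, with a panel for each library. The share of classical-leaning cells is highest above 15000 UMIs, at 75.1% in WT and 70.9% in APP/PS1, and lies above that of nonclassical-leaning cells in every band from 4000 UMIs up.

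Markers of neutrophils moved with the platelet transcripts. At least 1% of the UMIs were S100a8 and S100a9, the calprotectin genes, in 19.9% (17.2 to 22.7) of WT carrying against 5.15% (4.21 to 6.24) of platelet-free cells, and in 26.6% (23.3 to 30.1) against 6.16% (4.99 to 7.52) in APP/PS1. The 10 neutrophil markers summed to 9782 CPM in carrying and 4351 CPM in free WT cells, and to 12843 and 4284 CPM in APP/PS1. S100a9, the most abundant, was at 4774 and 2117 CPM in WT and at 6410 and 2091 CPM in APP/PS1. In neutrophils themselves the markers summed to 159160 CPM or more in either library. Ly6g, the marker by which mouse neutrophils are sorted, was low, at 6.82 against 3.08 CPM in WT and at 9.13 against 3.52 CPM in APP/PS1. The granule genes Camp, Ltf and Ngp were low too, at 3.25 against 3.99, 2.06 against 1.99 and 5.96 against 5.17 CPM in WT, and were lower in APP/PS1 carrying cells, at 6.04 against 7.75, 4.56 against 5.28 and 7.95 against 10.4 CPM. Scrublet, which scores resemblance to simulated doublets, called 23.5% and 21.0% of carrying cells against 6.14% and 7.81% of free ones. Basophil markers summed to 17.4 and 23.6 CPM against 0.907 and 5.75 CPM, led by Gata2 and Mcpt8. The part of cell pairs in the platelet signal was not tested. For this reason the gene comparisons are also given in classical-leaning cells with S100a8+S100a9 under 0.5% of their UMIs, a limit set after the markers were seen, where the neutrophil markers summed to 1925 against 2062 CPM in WT and to 2154 against 1988 CPM in APP/PS1. Basophil markers stayed higher in the restricted carrying cells, at sums of 9.21 against 0.269 CPM in WT and 29.8 against 15.4 CPM in APP/PS1. In these restricted cells Nrgn, outside the rule, was at 469 against 74.5 CPM in WT.

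To describe what else came with Ppbp and Pf4, UMIs were summed over the carrying and over the free cells of each library and genes with at least 200 UMIs in each library were compared. Of 6569 genes, 117 were over 1 log2 unit higher in carrying cells in both libraries, 1.78% of all, and 102 were over 1 log2 unit lower in both, 1.55%. Taken singly, WT had 140 higher (2.13%) and 123 lower (1.87%), and APP/PS1 174 (2.65%) and 143 (2.18%). Of the 117, 26 belonged to the platelet lists, Ppbp and Pf4 among them by construction. The filter sums both classes, so a gene low in free cells passed it through the carrying cells alone, and the list counts below are in part fixed by it. Gp5, for example, gave 225 UMIs in carrying and 15 UMIs in free WT cells. The median of all 6569 genes was -0.01 in WT and -0.05 in APP/PS1.

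Genes of platelet granules are those from which the rule was made. Of 12 secreted platelet proteins listed, 8 passed the filter on low counts and 7 were past the fold, Ppbp and Pf4 among them by construction. Their levels were 234 and 590 CPM in WT and 340 and 743 CPM in APP/PS1 carrying cells. Clu, the gene of clusterin, an apolipoprotein stored in platelet granules, was at 80.6 against 10.1 CPM in WT (log2 ratio 3.002, 2.71 to 3.30) and at 123 against 10.9 CPM in APP/PS1 (3.49, 3.18 to 3.82). Mmrn1, the gene of multimerin, which binds factor V, was at 25.02 against 2.18 CPM and at 40.8 against 2.35 CPM. Vwf, von Willebrand factor, was at 36.5 against 9.79 CPM and at 62.3 against 7.28 CPM. Thbs1, the gene of thrombospondin, was higher by 1.17 and 1.33 log2 units over all cells but by 0.19 and 0.30 in classical-leaning cells of low S100a8+S100a9. F5, coagulation factor V, was at 102 against 27.6 CPM and at 112 against 23.4 CPM, with log2 ratios of 0.82 and 1.09 in the restricted cells. There 5 of the 8 genes were past the fold in both libraries, again with Ppbp and Pf4 by construction. Tgfb1, which leukocytes make too, was at 367 against 408 CPM in WT and 340 against 349 CPM in APP/PS1.

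Receptors of platelets had the higher ratios. The glycoprotein Ib-IX-V complex binds von Willebrand factor. Gp9 was at 81.3 against 10.5 CPM in WT and at 136 against 11.2 CPM in APP/PS1. Gp1bb was at 21.8 against 1.45 CPM and at 35.3 against 1.64 CPM, and Gp5 at 24.4 against 1.36 CPM and 37.4 against 1.53 CPM. Itga2b, the αIIb integrin that binds fibrinogen, was at 103 against 7.98 CPM in WT (log2 ratio 3.70, 3.38 to 4.03) and at 162 against 10.8 CPM in APP/PS1 (3.91, 3.60 to 4.22). Clec1b, the podoplanin receptor CLEC-2, was at 111 against 9.79 CPM and at 169 against 10.2 CPM. Treml1, a receptor of α-granules, was at 37.9 against 2.18 CPM and at 63.9 against 3.05 CPM. Cd226, an adhesion receptor that lymphocytes also carry, was at 59.9 against 7.43 CPM and at 69.6 against 6.46 CPM. Of 18 receptors, 10 passed the filter and 8 were past the fold. The exceptions, Cd9, a tetraspanin, and Itgb3, the β3 integrin, were higher by 0.63 log2 units each in WT and by 1.37 and 1.74 in APP/PS1. Free cells were mostly nonclassical-leaning, and within classical-leaning cells of low S100a8+S100a9 all 10 receptors were past the fold. There Cd9 was higher by 2.32 and 2.55 and Itgb3 by 2.31 and 2.60.

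Among genes past the filter, those of the platelet cytoskeleton and of its signalling had median log2 ratios of 2.31 (WT) and 2.91 (APP/PS1). Those of the receptors had 3.25 and 3.76. Of 18 cytoskeleton and signalling genes, 14 passed the filter and 11 were past the fold, against 9 in classical-leaning cells and 8 in the restricted cells. Nrgn was at 487 against 60.9 CPM in WT (log2 ratio 2.998, 2.88 to 3.12) and at 842 against 66.1 CPM in APP/PS1 (3.67, 3.55 to 3.80). Gng11, a G protein γ subunit, was at 460 against 74.3 CPM and at 743 against 78.0 CPM. Myl9, the myosin light chain of contractile cells, was at 108 against 12.4 CPM and at 174 against 13.4 CPM. Cald1, the gene of caldesmon, was at 45.4 against 2.81 CPM and at 71.7 against 2.82 CPM. Alox12, the 12-lipoxygenase of platelets, was at 78.0 against 5.53 CPM and at 113 against 5.17 CPM. Rgs10, a regulator of G protein signalling, was higher by 1.20 and 1.36 log2 units over all cells and by 0.45 and 0.66 in the restricted ones. Plek and Bin2, which monocytes express as well, were within 0.20 log2 units of free cells in both libraries.

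Transcription factors of the megakaryocyte nucleus were mixed. Of 8 listed, 4 passed the filter, all of them at 84.4 CPM or more in free cells of either library, and 0 were past the fold, with medians of -0.01 in WT and 0.10 in APP/PS1. Runx1 was at 157 against 167 CPM in WT and at 135 against 133 CPM in APP/PS1. Nfe2 was at 104 against 111 CPM and at 104 against 91.8 CPM. Among those too low for the filter, Tal1 gave 50 UMIs in carrying and 8 UMIs in free WT cells (log2 ratio 2.90, 1.81 to 4.19) and 49 and 8 UMIs in APP/PS1 (2.94, 1.85 to 4.23). Zfpm1, a cofactor of Gata1, gave 37 and 36 UMIs in WT and 24 and 46 UMIs in APP/PS1. Gata1, the erythroid and megakaryocyte factor, gave 25 UMIs in WT and 17 UMIs in APP/PS1 carrying cells and 0 in free cells, where a count of 0 allows up to 0.272 and 0.352 CPM.

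**Figure D3:**
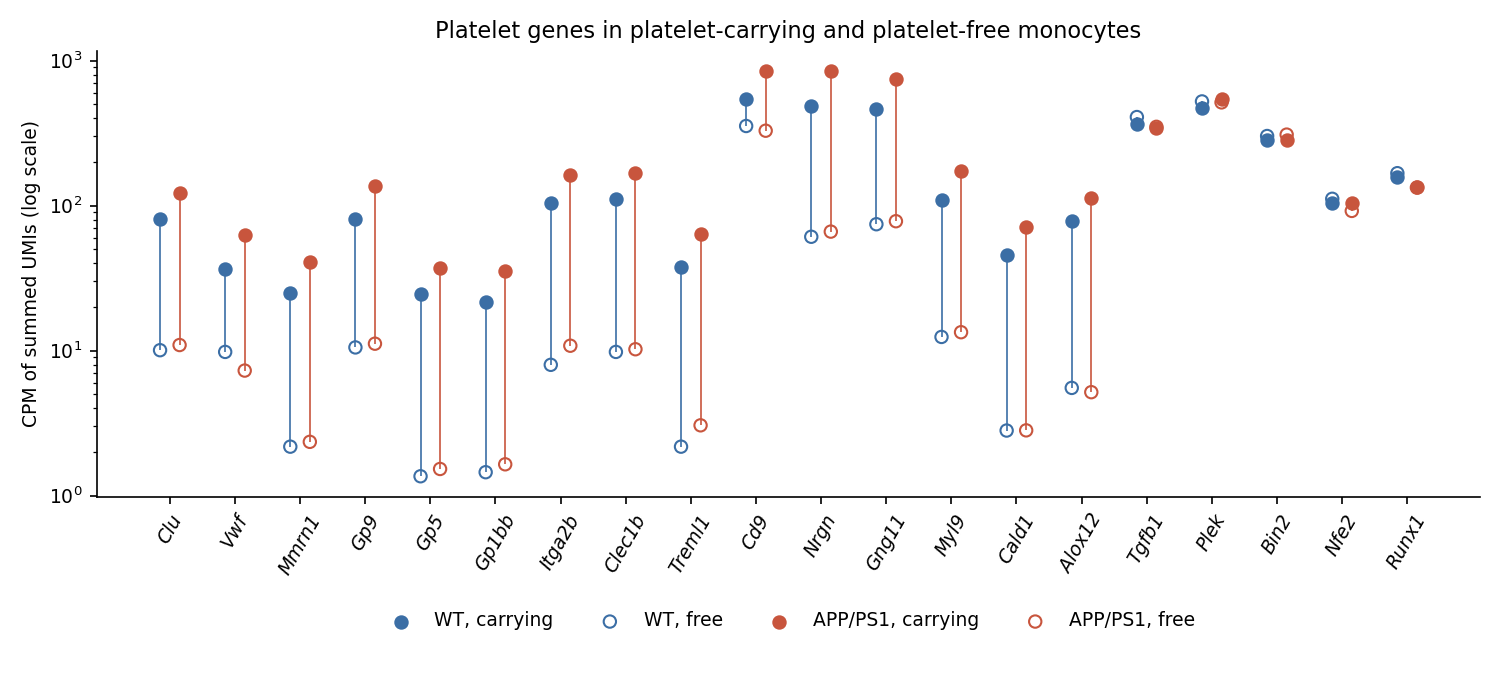
Level of 20 platelet and megakaryocyte genes as CPM of summed UMIs (y axis, log scale) in platelet-carrying (filled) and platelet-free (open) monocytes of the WT (blue) and APP/PS1 (red) libraries, with a line joining the classes of a library. Itga2b goes from 7.98 to 103 CPM in WT and from 10.8 to 162 CPM in APP/PS1, while the points of Tgfb1, Plek, Bin2, Nfe2 and Runx1 lie close together.

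Outside the platelet lists, the 15 highest genes were Cavin2, Itga6, Fhl1, Lgalsl, Tsc22d1, Sh3bgrl2, Ctla2b, Arhgap10, Gchfr, Ctla2a, Prkar2b, Hist1h2bc, Ipo11, Odc1 and Otud7b. Cavin2, a coat protein of caveolae, led with 40.5 against 3.26 CPM in WT (log2 ratio 3.63, 3.14 to 4.17) and 73.5 against 3.88 CPM in APP/PS1 (4.24, 3.74 to 4.80). Itga6, the laminin receptor α6 integrin, was at 83.0 against 7.89 CPM and at 120 against 5.75 CPM. Ctla2a, a protease inhibitor, was at 1520 against 260 CPM and at 2185 against 257 CPM. Tsc22d1 was at 190 against 23.1 CPM and at 295 against 32.6 CPM. Odc1, the first enzyme of polyamine synthesis, was at 69.1 against 18.1 CPM and at 109 against 26.7 CPM. All 15 were past the fold in classical-leaning cells of low S100a8+S100a9 in both libraries.

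The 10 lowest genes were Cd300e, Gjb2, Tgm3, Adrb1, Eno3, Fabp4, Bcl2a1d, Pparg, Cd36 and Lilra5, of which Eno3 is part of the subtype score. Cd36, a scavenger and thrombospondin receptor, was at 70.0 against 251 CPM in WT and at 57.1 against 239 CPM in APP/PS1. Pparg, a lipid-sensing nuclear receptor, was at 19.1 against 68.6 CPM and at 15.2 against 56.0 CPM. Of 10 nonclassical genes outside the rule, 7 were past the fold in this direction, among them Treml4 and Spn. Of 10 classical ones, 2 were past it in the other, Vcan among them. Within a subtype these differences were smaller or unlike between libraries. Cd36 was higher in carrying cells by 0.90 and 0.73 log2 units among classical-leaning cells, stood at 0.65 and -0.09 in those of low S100a8+S100a9, and at -0.30 (-0.46 to -0.14) and -0.33 (-0.54 to -0.13) among nonclassical-leaning cells. Cd300e, a myeloid receptor, was likewise at 0.71 and 0.86 in classical-leaning and at -0.42 and -0.34 in nonclassical-leaning cells. Tgm3 was at 1.46 in WT and -1.01 in APP/PS1 classical-leaning cells. The medians of the nonclassical list in classical-leaning cells were 0.11 and 0.01. Of the same 6569 genes, 79 were higher (1.2%) and 5 lower (0.0761%) in classical-leaning cells in both libraries. In those of low S100a8+S100a9, 61 were higher (0.929%) and 5 lower (0.0761%). Of the 61, 23 belonged to the platelet lists, Ppbp and Pf4 among them by construction.

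The 5 lower genes, named after their values were seen, were Nkg7, Gzma, Gzmb, Prf1 and Ccl5, all of cytotoxic lymphocytes. Over all cells Gzma, granzyme A, was at 56.5 against 120 CPM in WT (log2 ratio -1.09, -1.24 to -0.94) and at 93.5 against 204 CPM in APP/PS1 (-1.13, -1.26 to -0.99), and its log2 ratios in the restricted cells were -1.22 and -1.23. Ccl5, a chemokine of the same lymphocytes, was over all cells at 126 against 265 CPM and at 154 against 536 CPM. Ncr1, the defining marker of NK cells, stood at 2.27 against 4.71 CPM and at 3.97 against 8.34 CPM, and the whole list of 6 NK markers summed to 87.1 against 176.5 CPM and to 138 against 326 CPM. The haemoglobin gene Hbb-bs was lower too, at 2074 against 4578 CPM in WT and at 3450 against 4832 CPM in APP/PS1. In classical-leaning cells of low S100a8+S100a9 it was higher by 0.34 log2 units in APP/PS1 and lower by 1.31 in WT. Of 6 erythroid markers tested, 1 was higher and 0 were lower past the fold in both libraries, over all cells and in the restricted cells. The part of RNA from NK and red cells in these values was not tested.

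Genes by which monocytes might answer a platelet were counted from lists. Over all 6569 genes, 1.78% were higher and 1.55% lower past the fold in both libraries. In classical-leaning cells 1.2% were higher and 0.0761% lower. A count of 0 in a short list is near these shares. Of 12 receptors that bind platelets, 2 were higher, Jaml among them, and Itgal and Cd36 were lower past the fold over all cells, and 0 of the 12 were past it in classical-leaning cells. Selplg, the ligand of P-selectin, was at 281 against 240 CPM in WT and at 325 against 256 CPM in APP/PS1. Of 13 inflammatory and procoagulant genes tested, Ccl2, a chemokine for monocytes, and Ptgs2, cyclooxygenase-2, were higher and Ccl5 lower. In classical-leaning cells of low S100a8+S100a9 the list's medians were -0.10 and -0.11, with Ccl2 higher by 0.34 and 0.16 log2 units and Ptgs2 at -0.16 and 0.43. Il1b, the most abundant of the list, was at 1474 against 947 CPM in WT and at 2233 against 992 CPM in APP/PS1 over all cells, and had log2 ratios of -0.26 and 0.38 in the restricted cells. F3, tissue factor, did not reach 1 CPM in carrying cells of either library. Of 16 immediate early genes tested, Egr3 was higher over all cells, with log2 ratios of -0.01 and 0.32 in the restricted cells. Of 9 uptake and lysosomal genes tested, Cd36 was lower. Of 9 interferon-induced genes, 0 were past the fold in both libraries. Their median log2 ratios were 0.65 (WT) and 0.87 (APP/PS1) over all cells and -0.13 and -0.19 in the restricted cells.

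UMIs of Ppbp and Pf4 were also found in other leukocytes. At least 4 UMIs of Ppbp and Pf4 were found in 13.6% (12.7 to 14.6) of 5457 WT and 17.8% (16.9 to 18.8) of 6123 APP/PS1 neutrophils, at median depths of 2572 and 2746 UMIs. The shares were 4.71% and 3.32% in B cells, 8.33% and 8.56% in T cells and 4.52% and 4.75% in NK cells, which lack these genes and had median depths of 3276 to 5649 UMIs. The 7.17% and 6.60% of nonclassical-leaning monocytes, at median depths of 4402 and 4723 UMIs, lay in the range of these cell types. After thinning to 1000 UMIs a UMI remained in 32.1% and 34.1% of neutrophils, 15.3% and 5.65% of B cells, 15.6% and 15.4% of T cells, and 17.2% and 11.7% of NK cells, against the 27.0% and 29.96% of classical-leaning and the 16.0% and 13.1% of nonclassical-leaning monocytes. After this thinning neutrophils had the larger share and classical-leaning monocytes came next, with intervals that did not overlap in either library. Before thinning the order was the opposite, with at least 1 UMI in 53.7% and 55.6% of neutrophils and 74.4% and 72.5% of classical-leaning monocytes.

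The makeup of the platelet signal was set out across cell types. As a description of the genes that chose the cells, the ratio of Pf4 to Ppbp UMIs was 2.52 (2.40 to 2.65) in WT and 2.18 (2.08 to 2.29) in APP/PS1 carrying monocytes and 2.28 (2.15 to 2.42) and 2.15 (2.05 to 2.25) in carrying neutrophils, and 4.73 (2.69 to 8.90) and 3.14 (2.22 to 4.51) in the 2 and 3 barcodes whose UMIs were at least 5% Ppbp and Pf4. For 46 platelet-list genes, the excess of carrying over free cells per UMI of Ppbp and Pf4 was set out for both cell types. The excess was above 0 in both for 41 genes in WT and 42 in APP/PS1, and on the log2 scale its Pearson correlation across these genes was 0.94 and 0.95, given as a description of genes that are not independent and share cells and libraries. The median ratio of monocyte to neutrophil excess was 1.33 and 1.25. Thbs1 had an excess of 44.3 per 100 UMIs of Ppbp and Pf4 in WT monocytes and 7.23 in neutrophils, and Plek of -6.30 and 13.4. The APP/PS1 values were 39.2 and 7.06 for Thbs1 and 2.83 and 13.1 for Plek. Of the 61 genes higher in classical-leaning cells of low S100a8+S100a9, 52 were also past the fold in carrying over free neutrophils in both libraries. Of all 6569 genes, 144 were past it there (2.19%). Ppbp and Pf4 are in each of these counts by construction, since free cells hold no UMI of them. In 8 of the 61 neither neutrophil library passed the fold, and these were Tspan2, Slc44a1, Slc2a3, Actn1, Ston2, Hist1h4i, Hist1h2bc and Pdlim7, named after their values were seen. Platelet-free neutrophils held them at 34.8 to 603 CPM. Slc2a3, the glucose transporter GLUT3, was at 30.03 against 12.6 CPM in WT and 50.9 against 14.1 CPM in APP/PS1 restricted monocytes, and at 439 and 411 CPM in platelet-free neutrophils. Actn1, α-actinin, was at 12.3 against 5.38 CPM and 19.97 against 8.20 CPM in the monocytes and at 218 and 204 CPM in platelet-free neutrophils.

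**Figure D4:**
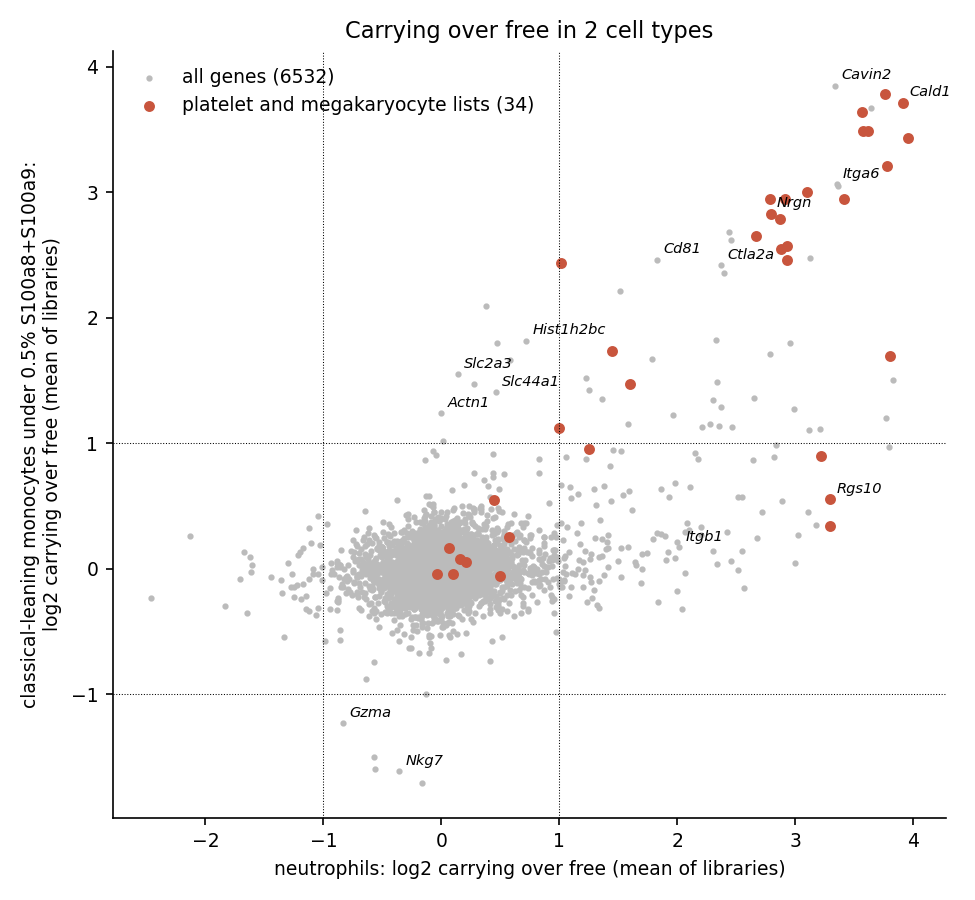
Log2 ratio of platelet-carrying over platelet-free cells, as the mean of both libraries, in neutrophils (x axis) and in classical-leaning monocytes under 0.5% S100a8+S100a9 (y axis), for 6532 genes (grey) with 34 genes of the platelet and megakaryocyte lists in red and dotted lines at 1 log2 unit. Of the red points, 21 lie past the fold on both axes, Hist1h2bc, Slc2a3, Slc44a1 and Actn1 are past it on the y axis alone, and Rgs10 and Itgb1 on the x axis alone.

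Between genotypes, platelet genes stood higher in the carrying monocytes of the APP/PS1 library. Of 47 platelet and megakaryocyte genes with at least 100 UMIs over both libraries, 41 were above 0 in the log2 ratio of APP/PS1 over WT, 32 with an interval above 0, and the median was 0.53. Of all 8240 genes compared, 38.9% were above 0 and 9.82% had an interval above 0, with a median of -0.05. Without the 3 APP/PS1 cells over 100 UMIs of Ppbp and Pf4 these were 37, 30 and 0.45. Nrgn was at 842 CPM in APP/PS1 and 487 CPM in WT carrying cells (log2 ratio 0.79, 0.73 to 0.85), and at 66.1 and 60.9 CPM in free cells (0.12, -0.05 to 0.28). Gng11 had log2 ratios of 0.69 (0.63 to 0.75) in carrying and 0.07 (-0.08 to 0.22) in free cells. Ppbp and Pf4, which set the limit and are counted in the 47, the 41 and the 32, had 0.54 and 0.33. In carrying neutrophils the medians of the secreted, receptor and cytoskeleton lists were 0.27, 0.33 and 0.32, against 0.42, 0.62 and 0.53 in carrying monocytes. Neutrophil markers stood higher in the same APP/PS1 cells, with a median of 0.43 in carrying and -0.02 in free monocytes. So did erythroid markers, with 7 of 7 above 0 and a median of 0.61 in carrying and 0.07 in free monocytes. In carrying neutrophils the medians had the opposite direction, at -0.18 for neutrophil and -1.01 for erythroid markers. The part of other cells in the platelet difference was not tested.

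Across all 8240 genes, 25 were over 1 log2 unit higher (0.303%) and 16 over 1 log2 unit lower (0.194%) in APP/PS1 carrying cells, and 40 (0.485%) and 24 (0.291%) in platelet-free cells. No gene of the platelet lists was past this fold. The 8 highest were Ttc9, Gm13822, Ifit3b, Cxcl10, AW011738, Ssx2ip, Jun and Nedd4. Jun, an AP-1 subunit, was at 469 CPM in APP/PS1 and 202 CPM in WT carrying cells (log2 ratio 1.22, 1.13 to 1.30) and at 780 and 321 CPM in free cells (1.28, 1.22 to 1.34). Cxcl10, an interferon-induced chemokine, was at 28.1 and 10.4 CPM (1.44, 1.07 to 1.80). Ifit3b, of the same response, was at 26.9 and 9.53 CPM (1.499, 1.12 to 1.88). Of 9 interferon-induced genes, 8 were above 0, where 38.9% of all genes were, with a median of 0.69 in carrying and 0.41 in free cells, against -0.05 and -0.02 over all genes. Without the cells called doublets 70 of 7512 genes were higher in place of 25 of 8240. That call used the WT doublet threshold in both libraries.

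The 8 lowest were Hbegf, Hebp1, Emp1, Vill, Uck2, Rhov, Gm47283 and Slc15a2. Hbegf, a heparin-binding growth factor of the EGF family, gave 3 UMIs in APP/PS1 and 253 UMIs in WT carrying cells (log2 ratio -5.96, -8.24 to -4.39) and 20 and 325 UMIs in free cells (-3.65, -4.38 to -3.00). Hebp1, a haem-binding protein, gave 8 and 376 UMIs (-5.11, -6.33 to -4.12) and 7 and 301 UMIs (-5.05, -6.38 to -3.99). Emp1, an epithelial membrane protein, was at 9.27 and 101 CPM (-3.44, -3.84 to -3.08) and at 5.87 and 47.0 CPM in free cells (-3.00, -3.45 to -2.58). All 16 genes of both sets had the same direction in free cells except Ssx2ip, with 10 and 13 UMIs there (-0.01, -1.35 to 1.30).

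**Figure D5:**
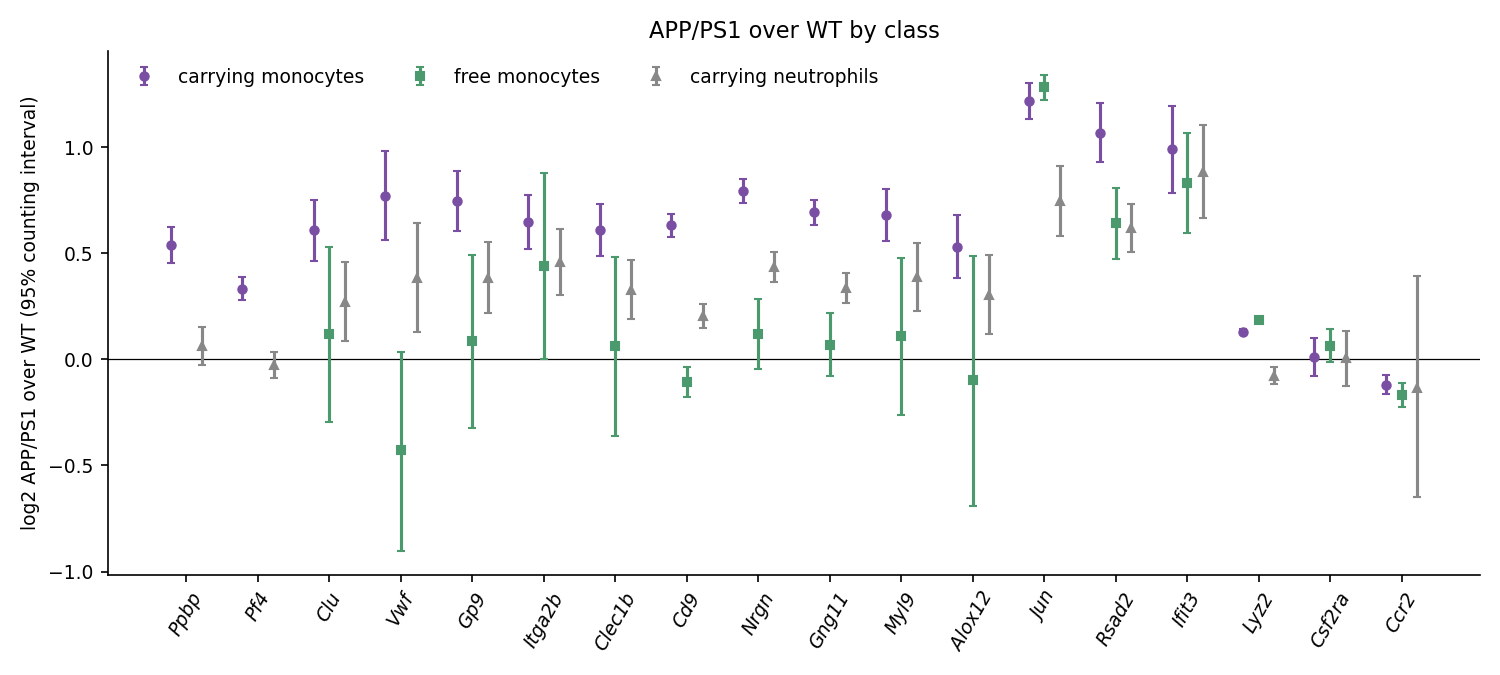
Log2 ratio of APP/PS1 over WT (y axis, bars are 95% counting intervals) for 18 genes in platelet-carrying monocytes (circles), platelet-free monocytes (squares) and platelet-carrying neutrophils (triangles). Platelet genes from Ppbp to Alox12 lie above 0 in carrying monocytes, Nrgn at 0.79, and nearer to 0 in free monocytes, which by rule have no value for Ppbp and Pf4, while Jun is at 1.22 and 1.28 in the 2 monocyte classes.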

How the data were processed

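Each library's deposited table held raw UMI counts of 32285 features, which the authors had made with Cell Ranger 5.0.0 against mm10, as the submitters' processing notes give them. The members and gene lists were chosen with earlier results of these data known. Cells were gated by UMIs as the rule in the opening states, in Python 3.11.15 with numpy 2.4.6, pandas 2.3.3 and scipy 1.17.1. Counts were summed per class and library and scaled to CPM. Shares have exact Clopper-Pearson intervals, differences of shares Newcombe intervals, ratios exact conditional intervals, all at 95% and covering counting error only. A gene was past the fold beyond 1 log2 unit. Carrying over free needed 200 UMIs in each library over both classes, APP/PS1 over WT 100 UMIs over both libraries. Named were the most abundant list members, and by size the 15 highest and 10 lowest genes outside the platelet lists (by the smaller ratio of the libraries) and the 8 highest and 8 lowest between genotypes. Gp1bb, Gp5, Cald1, Tal1, Gata1, Selplg, F3 and the less abundant list members were named after their values were seen. Some list members are not reported here.

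Neutrophils had S100a8+S100a9 of at least 4% of UMIs and no Csf1r or Cd79a, B cells at least 2 UMIs of Cd79a, T cells at least 2 of Cd3e and Cd3g, and NK cells at least 1 of Ncr1 without Cd3e or Cd3g. The lymphocytes had S100a8+S100a9 under 4% and no Csf1r. Doublets were scored by Scrublet in scanpy 1.11.5 at an expected rate of 8% and kept. Its automatic threshold called 0 APP/PS1 cells, so the WT threshold of 0.203 was used for both, calling 1707 and 1503 cells. The ratio intervals were tested on simulated data, and thinned cells were checked to hold 1000 UMIs each. TMM factors came from edgeR 4.0.16 in R 4.3.3. Figures used matplotlib 3.10.9.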

Additional observations from a re-analysis of the deposited data

Results flagged for a closer look

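Barcodes under 1000 UMIs were outside the monocyte, neutrophil and lymphocyte classes. Of 808 in the WT library, 16.1% (13.6 to 18.8) held at least 4 UMIs of Ppbp and Pf4, and of 885 in the APP/PS1 library, 18.2% (15.7 to 20.9), at median depths of 669.5 and 669 UMIs, where a count of 0 would allow up to 0.371% and 0.339%.

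Some listed genes had opposite directions in the 2 libraries or the 2 classes, with every counting interval clear of 0. The differences themselves were not tested, since each side is 1 library. Plek, the pleckstrin of platelets and leukocytes, had a log2 ratio of carrying over free monocytes of -0.15 in WT and 0.08 in APP/PS1, a difference of 0.235. Dusp1, a phosphatase of the stress response, had -0.10 and 0.12, a difference of 0.221.

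For APP/PS1 over WT, Cd9 was at 0.63 in carrying and -0.11 in free monocytes, a difference of 0.74, and the platelet genes as a group were higher in the same carrying cells. S100a8 was at 0.32 and -0.05, a difference of 0.362, Pglyrp1 at 0.25 and -0.27, a difference of 0.525, and Trem1 at 0.18 and -0.36, a difference of 0.549. Neutrophils express all 3, and the share of carrying cells with S100a8+S100a9 of at least 1% of UMIs was 19.9% in WT and 26.6% in APP/PS1. The part of this in their values was not tested. Tnf was at -0.36 and 0.48, a difference of -0.844, F13a1 at -0.15 and 0.08, a difference of -0.232, and Cebpb at -0.08 and 0.03, a difference of -0.112.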

How the results depend on the processing

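No paired analysis was possible because each genotype has 1 library and the labels carry no replicate numbers. With a limit of 10 UMIs, carrying cells made up 5.34% of WT and 6.87% of APP/PS1 monocytes, the classical-leaning share differed from free cells by 63.4 and 62.1 points, and the ratios of carrying over free were 2.37 and 1.996 for median UMIs and 1.69 and 1.49 for median genes. With a limit of 0.1% of UMIs these were 6.65% and 8.45%, 39.1 and 48.7 points, 1.41 and 1.58, and 1.22 and 1.31. With the study's percentile limits on cells they were 16.1% and 16.8%, 48.8 points in WT, 1.70 and 1.57, and 1.39 and 1.28. There 69 of 5792 genes were higher in carrying cells and 14 of 6911 higher in APP/PS1. S100a8+S100a9 under 2% gave 17.8% and 18.5%. Removing called doublets gave 16.8% and 18.7%, 57.5 points in APP/PS1, and 70 of 7512 genes higher in APP/PS1, and the cause was not tested. The interval of the genotype difference in the share of carrying cells, which includes 0 as reported, was clear of 0 with the limits of 10 UMIs (0.44 to 2.66 points) and 0.1% (0.60 to 3.04), without called doublets (0.0079 to 3.75) and without cells over 15000 UMIs (0.38 to 3.98).

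The number of genes tested changed with the setting, from 6569 for carrying over free and 8240 for APP/PS1 over WT as reported. Against all monocytes under 4 UMIs the classical-leaning share differed by 41.3 and 42.4 points and 69 of 7533 genes were higher. A filter of 50 UMIs, which tests more genes, gave 240 of 9315 higher in carrying cells. Of 9421 genes, 47 were then higher and 41 lower in APP/PS1. With no filter 506 of 12942 genes were higher and 312 lower in carrying cells. Of 13647 genes, 817 were higher and 592 lower in APP/PS1. In classical-leaning cells, with the filter of 200 UMIs applied anew, 33.3% and 34.6% carried, and 61 of 5269 genes were higher and 3 lower. The ratios of medians were 1.26 and 1.21 for UMIs and 1.15 and 1.14 for genes. In nonclassical-leaning cells 7.17% and 6.60% carried, a difference of -0.56 points, and 38 of 3948 genes were higher and 0 lower. Of 2843 genes, 11 were higher and 9 lower in APP/PS1. After thinning, the ratio of median genes was 1 (WT) and 0.995 (APP/PS1). Of the monocytes, 19.7% (WT) and 18.98% (APP/PS1) kept at least 1 UMI of Ppbp or Pf4. Before thinning 55.96% and 53.97% held at least 1 UMI, so WT was the higher at this limit both before and after. The difference as reported, at the limit of 4 UMIs, has the opposite direction.

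Alternatives chosen after seeing the data were these. S100a8+S100a9 under 0.5% gave 16.9% and 17.2%, ratios in APP/PS1 of 1.61 and 1.31, and 70 higher genes. This setting tested 5833 genes for carrying over free and 7261 for APP/PS1 over WT. With classical-leaning cells as well, 31 of 4208 genes were higher in carrying cells and 3 lower. Without cells over 15000 UMIs the shares were 16.8% and 18.9% and the WT ratios 1.75 and 1.40. TMM, CPM without platelet lists and the mean over cells left the 4 counts of genes within 1.5 times.

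Of the 10 lowest genes, 9 had the opposite direction within classical-leaning cells as the mean log2 ratio of the libraries, of which Tgm3, Lilra5 and Pparg did so in 1 library alone. The means were 0.78 for Cd300e, 0.22 for Tgm3, 0.92 for Adrb1, 0.42 for Eno3, 0.95 for Fabp4, 0.29 for Bcl2a1d, 0.21 for Pparg, 0.81 for Cd36 and 0.0897 for Lilra5. With S100a8+S100a9 under 0.5% as well, Tgm3 was at 0.42, Adrb1 at 0.32, Eno3 at 0.19, Fabp4 at 0.36 and Cd36 at 0.28, where all but Eno3 were below 0 in APP/PS1.

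Depth limits the call itself, since 4 UMIs are reached more easily in deeper cells, and each genotype rests on 1 pool of 3 mice.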
